A study of Mus musculus with 14 samples.

Results

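The aldehyde dehydrogenases described here are 10 genes: Aldh1a1, Aldh1a7, Aldh1b1, Aldh1l1, Aldh2, Aldh3a1, Aldh3a2, Aldh4a1, Aldh6a1 and Aldh7a1. They were found by gene symbol, and all 10 are among both the 16821 genes of the first table and the 16095 genes of the second. Expression was measured by RNA sequencing of murine hepatocellular carcinoma driven by MYC, in cells labelled hepatocytes, with Cas9 and a guide RNA in each tumour. The first table holds 4 tumours with a guide against GFP (sgGFP, the control), 3 with a guide against Cul3 (sgCul3) and 3 with a guide against Keap1 (sgKeap1). The second holds tumours A and B with the guide sgNrf2, aimed at the ETGE motif by which NRF2 is recognised, and controls A and B, which per the labels repeat the tumours numbered 2 and 4 of the sgGFP group. MYC is common to all 14 libraries, and the labels give no strain, age, further allele or time. Whether each tumour came from an animal of its own is not in them, so p-values cover only the spread among these libraries, which may be technical. KEAP1 and CUL3 mark the transcription factor NRF2 for degradation, and the labels describe all 3 guides as ways to activate NRF2.

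Aldehyde dehydrogenases oxidise reactive aldehydes to acids with NAD or NADP as acceptor. In the liver they clear acetaldehyde made from ethanol and aldehydes made by lipid peroxidation, turn retinal into retinoic acid, and carry out single steps in the breakdown of amino acids, folate intermediates and fatty alcohols. Aldh1a1 and Aldh1a7 act in the cytosol, Aldh1b1 and Aldh2 in mitochondria, and Aldh3a2 in membranes of the endoplasmic reticulum. Aldh1a1 and Aldh3a1 are known as genes that NRF2 can induce, and Aldh3a1 also as a target of the aryl hydrocarbon receptor AhR.

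The deposited values are gene counts scaled by library, called scaled counts below. The 2 tables were scaled separately, so levels are compared within a table only. Reads on genes numbered between 6333025 and 12008223 per library of the first table, where a count of 0 allows 0.250 to 0.474 CPM (3 counts, counting error only). Libraries of the second had between 17819333 and 20848578, with 0.144 to 0.168 CPM. Keap1 had 462, 414 and 287 scaled counts in the sgKeap1 tumours against 582 to 721 in sgGFP, a log2 fold change of -0.77 ± 0.21 (SE, limma adjusted p = 0.048). There Keap1 did not pass in 10 alternative settings, among them those that left out any 1 sgGFP tumour (adjusted p of 0.017 to 0.16 over all of them). Cul3 had 163, 426 and 676 in the sgCul3 tumours against 935 to 1372 in sgGFP. On the log2 scale this was -1.70 ± 0.39, just short of passing (limma adjusted p = 0.051). Cul3 also lay below all sgGFP tumours in sgKeap1 (596 to 895), and Keap1 above all of them in sgCul3 (823 to 1150). Neither of these differences passed (limma adjusted p = 0.31 and 0.21). Of the 10 hepatocyte markers checked 9 are in the tables, and their summed level was 134622 to 381492 in sgGFP, 142709 to 349162 in sgCul3 and 169262 to 1221639 in sgKeap1. The highest of these sums belongs to sgKeap1 tumour 2.

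Aldh1a1 rose 4.11-fold in sgKeap1 and 7.33-fold in sgNrf2, while its close neighbour Aldh1a7 passed in no comparison. The controls of the sgNrf2 tumours repeat sgGFP tumours 2 and 4, so these values stand side by side and do not support each other. Aldh1a1 makes retinoic acid from retinal and is often used as a marker of stem-like cells. Aldh1a7 is its paralogue in rodents. On GRCm38, Aldh1a1 (ENSMUSG00000053279.8) spans chr19:20492715-20643465 on the plus strand and Aldh1a7 (ENSMUSG00000024747.3) spans chr19:20692953-20727562 on the minus strand, with 49488 bases between them. The coding sequences have the same length of 1503 bases and are 91.6% identical, with 126 differences and a longest identical run of 100 bases. The first 120 coding bases show how the reads of one gene are told from those of the other, with capitals at the 10 positions that differ.
Aldh1a1: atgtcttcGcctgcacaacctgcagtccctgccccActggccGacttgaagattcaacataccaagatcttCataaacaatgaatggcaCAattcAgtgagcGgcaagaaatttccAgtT
Aldh1a7: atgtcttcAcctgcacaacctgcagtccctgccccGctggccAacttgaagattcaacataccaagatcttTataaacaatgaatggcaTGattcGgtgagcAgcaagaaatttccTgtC
Of all 50-base windows of the Aldh1a1 transcript, 6.54% also occur in Aldh1a7, and 7.49% of those of Aldh1a7 occur in Aldh1a1. Reads inside such windows cannot be assigned to either gene.

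The likeness reaches upstream of the coding sequence. RefSeq gives Aldh1a1 a pair of start sites on GRCm38.p6, and the second of them lies in a stretch that is shared with the start of Aldh1a7. The 150 bases before these starts are shown because the fold changes of these paralogues are set side by side below and their sequence next to the start is nearly the same, with capitals where they differ in an alignment without gaps. The Aldh1a1 stretch is chr19:20601818-20601967 on the plus strand and that of Aldh1a7 is chr19:20727557-20727706 on the minus strand.
Aldh1a1, second start: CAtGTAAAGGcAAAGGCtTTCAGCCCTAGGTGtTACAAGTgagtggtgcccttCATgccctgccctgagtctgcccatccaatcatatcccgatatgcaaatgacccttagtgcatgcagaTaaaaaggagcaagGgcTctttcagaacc
Aldh1a7: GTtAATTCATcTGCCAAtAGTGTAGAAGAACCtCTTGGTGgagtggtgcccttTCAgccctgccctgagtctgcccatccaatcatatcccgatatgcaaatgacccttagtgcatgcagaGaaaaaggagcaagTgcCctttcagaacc
In the 110 bases nearest the start 104 are identical, while 4 of the 40 bases beyond are. The first start site of Aldh1a1 has no such counterpart, and the 80 bases before it, chr19:20492503-20492582 on the plus strand, hold a match to the AP-1 site, in capitals.
Aldh1a1, first start: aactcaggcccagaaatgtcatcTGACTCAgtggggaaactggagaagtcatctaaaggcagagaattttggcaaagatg
Motifs were searched on both strands of the 300-base windows from 250 bases before to 50 after each start. The 3 motifs were the antioxidant response element core TGACNNNGC, which NRF2 binds, the AhR core GCGTG and the AP-1 site TGACTCA, whose letters also begin an antioxidant response element core where GC follows it. RefSeq windows were searched for 7 of the 10 genes, 9 windows in all, and none was searched for Aldh2, Aldh3a1 and Aldh7a1. The antioxidant response element core was found in 0 of the 7 genes and in 12.4% of all 32851 windows. The AhR core was found in Aldh4a1, Aldh3a2 and Aldh6a1 and in 32.4% of all windows, and the AP-1 site in Aldh1a1 and in 5.20% of all windows. A match is only a description of letters, and these windows leave out distal sequence.

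Aldh1a1 had 515, 1486, 873 and 631 scaled counts in the sgGFP tumours, in order of their number. The sgCul3 tumours had 1726, 3641 and 2256, and the sgKeap1 tumours 3125, 4551 and 2580. All 6 tumours with a guide against Keap1 or Cul3 lay above all 4 sgGFP tumours, and sgGFP tumour 2 was the highest control. The means were 876 ± 433 in sgGFP, 2541 ± 989 in sgCul3 and 3419 ± 1018 in sgKeap1 (SD, n = 4, 3 and 3). In sgKeap1 Aldh1a1 rose 4.11-fold, a log2 fold change of 2.04 ± 0.37 (SE, limma adjusted p = 0.010). In sgCul3 its log2 fold change was 1.58 ± 0.37, which missed the threshold of 0.05 (limma adjusted p = 0.056) and passed with the tumour number as a block (log2 fold change 1.47, adjusted p = 0.023). It also passed without sgGFP tumour 2 (1.88, adjusted p = 0.032), and its adjusted p ranged from 0.0049 to 0.19 over the alternatives, with 5 of 18 settings passing. Between sgKeap1 and sgCul3 Aldh1a1 differed by 0.46 on the log2 scale, with a 95% interval from -0.42 to 1.34 (limma adjusted p = 0.67). The comparisons of both guides share the sgGFP tumours, so their values stand side by side and do not support each other.

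Of the libraries of the second table, Aldh1a1 had 17898 and 17240 scaled counts in the sgNrf2 tumours (A, then B) against 3091 and 1855 in the controls. Both sgNrf2 tumours stood far above both controls. The means were 17569 ± 465 and 2473 ± 874 (SD, n = 2 and 2), and Aldh1a1 rose 7.33-fold, which is 2.87 ± 0.29 on the log2 scale (SE, limma adjusted p = 0.031). Its p was the 91st smallest among 13989 genes, and 2.19% of these genes had a higher fold change. Without sgNrf2 tumour A or B it did not pass (adjusted p = 0.060 and 0.075, in a range of 6.1e-14 to 0.075), where the lone tumour left is assumed to vary like the controls.

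**Figure D1:**
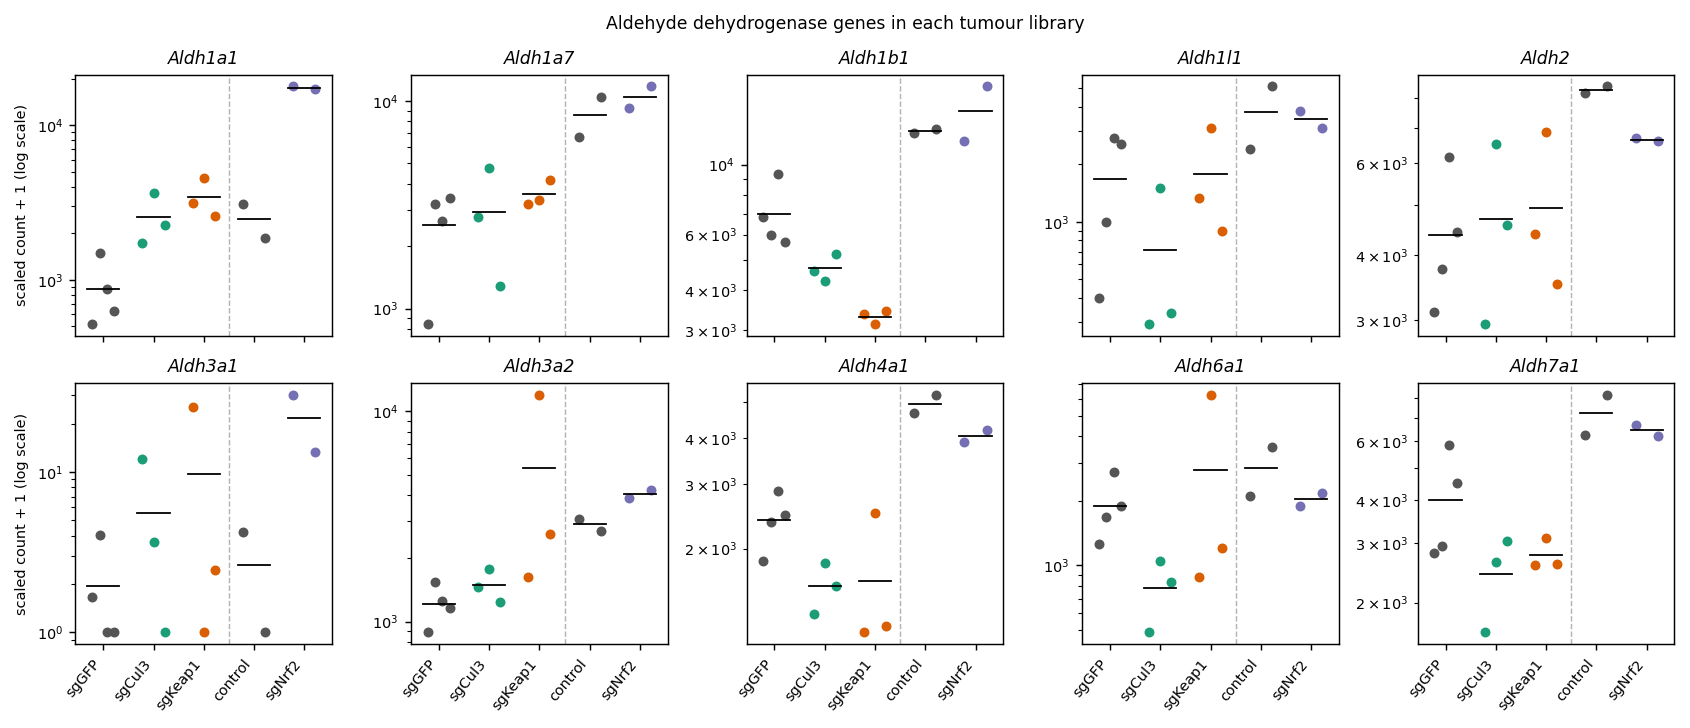
Scaled counts plus 1 of each of the 10 aldehyde dehydrogenases on a logarithmic vertical axis, with 1 point per tumour library and a line at the mean of each group (sgGFP n = 4, sgCul3 n = 3, sgKeap1 n = 3, control n = 2, sgNrf2 n = 2). The dashed line separates the 2 tables, whose levels cannot be set against each other. Aldh1a1 lies at 515 to 1486 in sgGFP and at 2580 to 4551 in sgKeap1, and Aldh1b1 at 5674 to 9369 and 3126 to 3429.

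Aldh1a7 was already more abundant than Aldh1a1 in the controls. It had 841, 3184, 2638 and 3408 scaled counts in sgGFP, 2755, 4730 and 1284 in sgCul3 and 3187, 3316 and 4162 in sgKeap1. The groups overlapped, and sgGFP tumour 1 was far below the other controls. The log2 fold changes of Aldh1a7 were 0.21 ± 0.51 in sgCul3 and 0.67 ± 0.51 in sgKeap1 (SE, limma adjusted p = 0.88 and 0.40). It had 6723 and 10434 in controls and 9247 and 11756 in sgNrf2, a log2 fold change of 0.32 ± 0.30 (adjusted p = 0.50), and the groups overlapped again. The 95% interval of Aldh1a7 in sgNrf2 runs from -0.45 to 1.08, below that of Aldh1a1, which runs from 2.12 to 3.63.

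The ratio of Aldh1a1 to Aldh1a7 within a library, per kilobase of transcript, does not depend on how libraries were scaled. On the log2 scale it was -0.90, -1.29, -1.79 and -2.62 in the 4 sgGFP tumours by number, then -0.87, -0.57 and 0.62 in sgCul3 and -0.22, 0.27 and -0.88 in sgKeap1. Aldh1a7 had the higher level in all 4 sgGFP tumours, and the ratio of each of the 6 tumours with a guide against Keap1 or Cul3 was above all of theirs, although sgCul3 tumour 1 and sgKeap1 tumour 3 stood close to sgGFP tumour 1. The difference was 1.38 in sgCul3 and 1.37 in sgKeap1, each with an exact two-sided permutation p of 0.057, the smallest that 3 against 4 tumours allow. Between sgKeap1 and sgCul3 the ratio differed by -0.01 (exact permutation p = 0.90, the smallest possible being 0.10). For the other table the ratio was -1.31 and -2.68 in the controls and 0.76 and 0.36 in sgNrf2, a difference of 2.56 (exact permutation p = 0.33, the smallest that 2 against 2 allow). Adjusted over these 4 tests (Benjamini-Hochberg), the p-values were 0.11, 0.11, 0.90 and 0.44, and no comparison passed. Controls A and B, the repeats of sgGFP tumours 2 and 4, gave nearly the ratios of those tumours, -1.31 beside -1.29 and -2.68 beside -2.62.

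**Figure D2:**
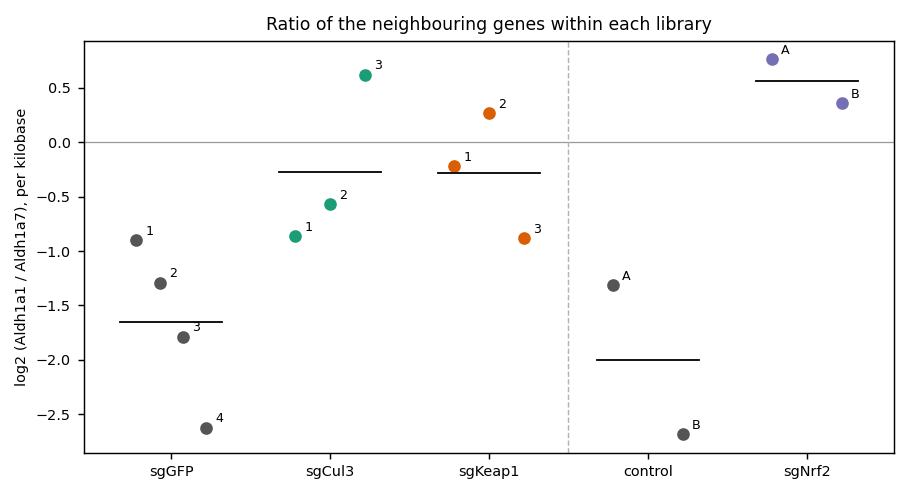
Log2 ratio of Aldh1a1 to Aldh1a7 within each library, both per kilobase of transcript, with 1 numbered point per tumour and a line at each group mean (sgGFP n = 4, sgCul3 n = 3, sgKeap1 n = 3, control n = 2, sgNrf2 n = 2). All sgGFP and control libraries lie between -2.68 and -0.90, and both sgNrf2 tumours lie above 0, at 0.76 and 0.36.

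Aldh1b1, a mitochondrial enzyme that oxidises acetaldehyde and retinal, went the other way in sgKeap1. This gene (ENSMUSG00000035561.5, chr4:45799022-45804604, plus strand, 2 exons) had 6820, 5995, 9369 and 5674 scaled counts in sgGFP, 4615, 4270 and 5193 in sgCul3 and 3352, 3126 and 3429 in sgKeap1. The sgKeap1 tumours lay close together, all below the sgCul3 tumours, which in turn were all below sgGFP. The means were 6964 ± 1674 in sgGFP, 4692 ± 466.3 in sgCul3 and 3302 ± 158 in sgKeap1 (SD, n = 4, 3 and 3). In sgKeap1 Aldh1b1 fell by 1.05 ± 0.22 on the log2 scale (SE, limma adjusted p = 0.018). It did not pass without sgKeap1 tumours 2 or 3 (adjusted p = 0.062 and 0.068, in a range of 2.9e-05 to 0.068), with log2 fold changes of -1.01 and -1.08. In sgCul3 its log2 fold change was -0.55 ± 0.22 (adjusted p = 0.23), and between sgKeap1 and sgCul3 it was -0.50 ± 0.23 (adjusted p = 0.50). In the second table Aldh1b1 had 12581 and 12995 scaled counts in controls and 11875 and 17695 in sgNrf2. Those groups overlapped, and the log2 fold change was 0.18 ± 0.27 (adjusted p = 0.68), with a 95% interval from -0.52 to 0.88. Whether the sgKeap1 and sgNrf2 values differ was not tested, since the tables were scaled separately.

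Aldh2 is the main mitochondrial acetaldehyde dehydrogenase of the liver. It (ENSMUSG00000029455.14, chr5:121566027-121593824, minus strand) had 3116, 3770, 6172 and 4424 scaled counts in sgGFP, 2951, 6530 and 4577 in sgCul3 and 4392, 6888 and 3514 in sgKeap1. The 3 groups covered nearly the same range. The log2 fold changes of Aldh2 were 0.07 and 0.16 in sgCul3 and sgKeap1 (limma adjusted p = 0.94 and 0.78), with 95% intervals from -0.67 to 0.82 and from -0.58 to 0.91. In sgNrf2 it had 6708 and 6611 against 8166 and 8416 in controls. Both sgNrf2 tumours were below both controls, with a log2 fold change of -0.32 ± 0.18 (SE, adjusted p = 0.29).

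Aldh3a2, the fatty aldehyde dehydrogenase, is lost in Sjögren-Larsson syndrome, and Aldh3a1 acts on aldehydes of lipid peroxidation and is best known from the cornea and stomach. The genes are neighbours, Aldh3a1 (ENSMUSG00000019102.10) at chr11:61207537-61218421 on the plus strand and Aldh3a2 (ENSMUSG00000010025.19) at chr11:61223417-61267464 on the minus strand, 4996 bases apart. Aldh3a2 had 887, 1537, 1258 and 1163 scaled counts in sgGFP, 1465, 1786 and 1235 in sgCul3 and 1634, 11954 and 2597 in sgKeap1. All sgKeap1 tumours were above all sgGFP tumours, and tumour 2 was far above the rest. The log2 fold change of Aldh3a2 in sgKeap1 was 1.64 ± 0.53 (SE), which missed the threshold (limma adjusted p = 0.078). It was 0.79 without sgKeap1 tumour 2 and 2.23 without sgKeap1 tumour 1, where it passed (adjusted p = 0.025), as it did with edgeR and DESeq2 (adjusted p = 0.043 and 0.0014, in a range of 0.0014 to 0.16). The sgKeap1 tumour that is high for Aldh3a2 also has the highest hepatocyte marker sum, 1221639, and a pericentral marker sum of 32299 against 3149 and 3390 in the other sgKeap1 tumours. The periportal sum of this tumour was 42858 against 10134 and 10794. Its stellate, endothelial and macrophage marker sums were the highest of the sgKeap1 tumours as well. The part of these cells in the value of Aldh3a2 was not tested. In sgCul3 and sgNrf2 its log2 fold changes were 0.31 ± 0.53 and 0.49 ± 0.18 (adjusted p = 0.81 and 0.16), the latter from 3874 and 4220 scaled counts against 3080 and 2703.

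Aldh3a1 was close to silent in these tumours and is given in reads. It had 1, 4, 0 and 0 reads in sgGFP, 8, 3 and 0 in sgCul3 and 30, 0 and 1 in sgKeap1, so nearly all sgKeap1 reads came from tumour 1. It had 3 and 0 reads in controls and 36 and 14 in sgNrf2. The reads of both sgNrf2 tumours were above those of both controls, and the ratio of their summed reads, corrected for the authors' scaling of the libraries, was 12, with a 95% counting interval from 3.89 to 60.3. The fitted log2 fold change of 3.28 ± 1.0 did not pass (SE, limma adjusted p = 0.11), except without control A (4.32, adjusted p = 0.042, in a range of 0.042 to 0.25). Aldh3a1 was too low to be tested in the first table, and it reached the test in the second through the sgNrf2 tumours alone.

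Aldh1l1 removes the formyl group of formyltetrahydrofolate and so drains the folate pool used for purine synthesis. It (ENSMUSG00000030088.15, chr6:90486427-90600203, plus strand) had 397, 993, 2741 and 2553 scaled counts in sgGFP, 292, 1501 and 335 in sgCul3 and 1326, 3081 and 896 in sgKeap1. Tumours of the same group differed up to 6.90-fold in sgGFP, and the groups overlapped. Its log2 fold changes of -1.29 ± 0.75 in sgCul3 and 0.26 ± 0.75 in sgKeap1 did not pass (SE, limma adjusted p = 0.41 and 0.85). Among the sgNrf2 tumours and their controls, Aldh1l1 had 2392 and 5099 in controls and 3782 and 3086 in sgNrf2, with a log2 fold change of -0.03 ± 0.40 (adjusted p = 0.96).

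The enzymes of amino acid breakdown did not pass in any comparison. Aldh4a1 (ENSMUSG00000028737.15, chr4:139622866-139649690, plus strand) oxidises the semialdehyde made from proline, Aldh6a1 (ENSMUSG00000021238.11, chr12:84430717-84451004, minus strand) acts in valine and thymine breakdown, and Aldh7a1 (ENSMUSG00000053644.13, on chromosome 18) acts in lysine breakdown. Aldh4a1 had 1850, 2360, 2864 and 2467 scaled counts in sgGFP, 1329, 1826 and 1582 in sgCul3 and 1183, 2499 and 1229 in sgKeap1. All sgCul3 tumours and all sgKeap1 tumours but tumour 2 were below every sgGFP tumour. The log2 fold changes of Aldh4a1 were -0.59 ± 0.28 and -0.62 ± 0.28 (SE, limma adjusted p = 0.30 and 0.17). Without sgKeap1 tumour 2 the latter was -0.97 and passed (adjusted p = 0.047, in a range of 0.047 to 0.40). Its transcript shares 45.0% of its 50-base windows with the overlapping gene model Gm21969, so its counts are uncertain.

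Aldh6a1 had 1254, 1675, 2734 and 1887 scaled counts in sgGFP, 485, 1044 and 831 in sgCul3 and 879, 6251 and 1202 in sgKeap1. The sgCul3 tumours were all below sgGFP, and the sgKeap1 tumours lay on both sides of it, with tumour 2 the highest of all. The log2 fold changes of Aldh6a1 were -1.27 ± 0.57 in sgCul3 and 0.05 ± 0.57 in sgKeap1 (SE, limma adjusted p = 0.29 and 0.97), and the latter was -0.82 without sgKeap1 tumour 2. Aldh7a1 had 2792, 2930, 5836 and 4512 in sgGFP, 1632, 2631 and 3036 in sgCul3 and 2576, 3093 and 2605 in sgKeap1. These groups overlapped, and its log2 fold changes were -0.70 ± 0.30 and -0.48 ± 0.30 (adjusted p = 0.26 and 0.31). In sgNrf2 the log2 fold changes of Aldh4a1, Aldh6a1 and Aldh7a1 were -0.29, -0.44 and -0.15 (adjusted p = 0.33, 0.37 and 0.66). Aldh6a1 and Aldh7a1 overlap Bbof1 and Phax on the opposite strand, and the sources used here do not say whether strand was used in counting.

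In sgCul3 against sgGFP, limma called 0 of the 9 tested aldehyde dehydrogenases, against 2.2% of all 13045 genes tested (1.35% higher and 0.851% lower). At an unadjusted p under 0.05, Aldh1a1, Aldh1b1, Aldh6a1 and Aldh7a1 would be named, edgeR called 0, and DESeq2 and the fit with the tumour number as a block called 1, Aldh1a1. The tumours did not overlap with sgGFP for 1 of the 9 genes on the higher side and 3 on the lower, against 8.71% and 7.54% of all genes. In sgKeap1 limma called 2 of 9, Aldh1a1 higher and Aldh1b1 lower, against 7.82% of all genes (4.45% higher and 3.37% lower), and 1 of 9 without sgKeap1 tumour 3. Groups did not overlap for 2 genes on the higher side and 1 on the lower, against 13.1% and 12.6% of all genes. Between sgKeap1 and sgCul3 limma called 0 of 9, against 0.0613% of all genes, edgeR and DESeq2 also called 0, and 1 had an unadjusted p under 0.05. The groups did not overlap for 1 gene, Aldh1b1, lower in sgKeap1, against 8.24% of all genes on that side and 7.52% on the higher side. In sgNrf2 limma called 1 of 10, Aldh1a1, against 4.41% of all 13989 genes tested (1.9% higher and 2.51% lower), and the groups did not overlap for 3 genes on the higher side and 2 on the lower, against 33.3% and 30.7%. The median log2 fold change of the tested members was -0.55, 0.16, 0.46 and 0.07 in these 4 comparisons in turn, beside 0.011, -0.0069, -0.0015 and 0.040 for all genes.

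**Figure D3:**
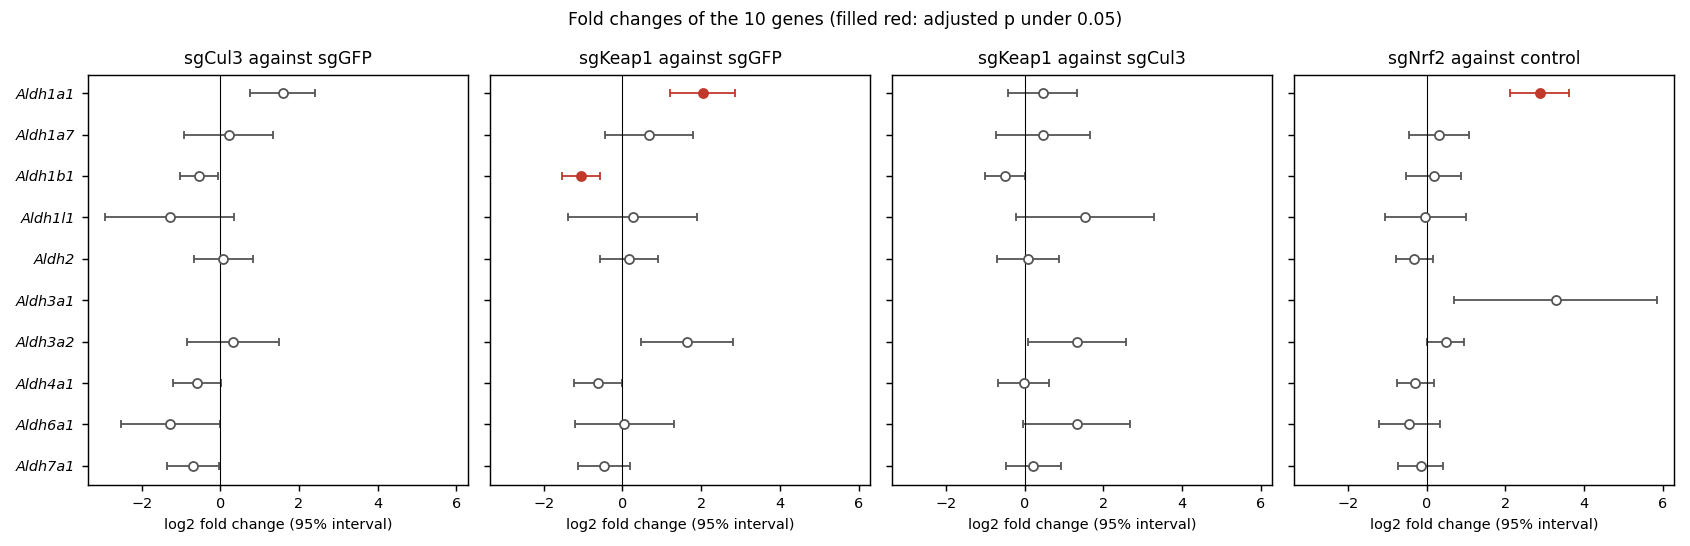
Log2 fold change of each of the 10 aldehyde dehydrogenases in 4 comparisons, as points with 95% intervals on a common horizontal axis, filled in red where the adjusted p is under 0.05. Aldh1a1 at 2.04 and Aldh1b1 at -1.05 are filled in sgKeap1, and Aldh1a1 at 2.87 in sgNrf2, while Aldh3a1 has a value in sgNrf2 only because it was too low to be tested in the first table.

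The make-up of the 10 genes was described from the levels per kilobase of the transcript with the longest coding sequence. In sgGFP the mean level per kilobase was highest for Aldh1b1 (3031), then Aldh7a1 (2099), Aldh1a7 (1219), Aldh2 (1130), Aldh4a1 (705), Aldh6a1 (555), Aldh3a2 (419), Aldh1l1 (400.3), Aldh1a1 (372) and Aldh3a1 (0.541). Aldh1a7 and Aldh2 differ by less than their spread, as do neighbours in this order from Aldh4a1 down to Aldh1a1. With the length of all annotated exons Aldh7a1 came to 775, below Aldh1a7 (1219) and Aldh2 (853). Aldh1a1 held 3.83% ± 2.0 of the sum of the 10 genes in sgGFP, with a range of 2.63% to 6.82%. It held 12.5% ± 1.94 in sgCul3 (10.8% to 14.6%) and 13.6% ± 2.04 in sgKeap1 (12.3% to 15.9%), so no tumour with either guide overlapped with sgGFP (SD, n = 4, 3 and 3). Its share was 6.88% and 3.47% in the controls (A, then B) and 28.7% and 24.6% in sgNrf2. In sgNrf2 Aldh1a1 had the highest mean level of the 10 genes per kilobase of that transcript (7451, against 6434 for Aldh1b1 and 5083 for Aldh1a7), but with the length of all its annotated exons it came below both (3559). Aldh1b1 held 31.2% ± 7.31 in sgGFP, 25.3% ± 6.72 in sgCul3 and 14.4% ± 5.03 in sgKeap1, and 26.8% ± 2.70 and 22.7% ± 4.48 in control and sgNrf2. Aldh2 kept a share of 10.5% to 12.2% in the 4 sgGFP tumours, the narrowest relative range of the family there.

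**Figure D4:**
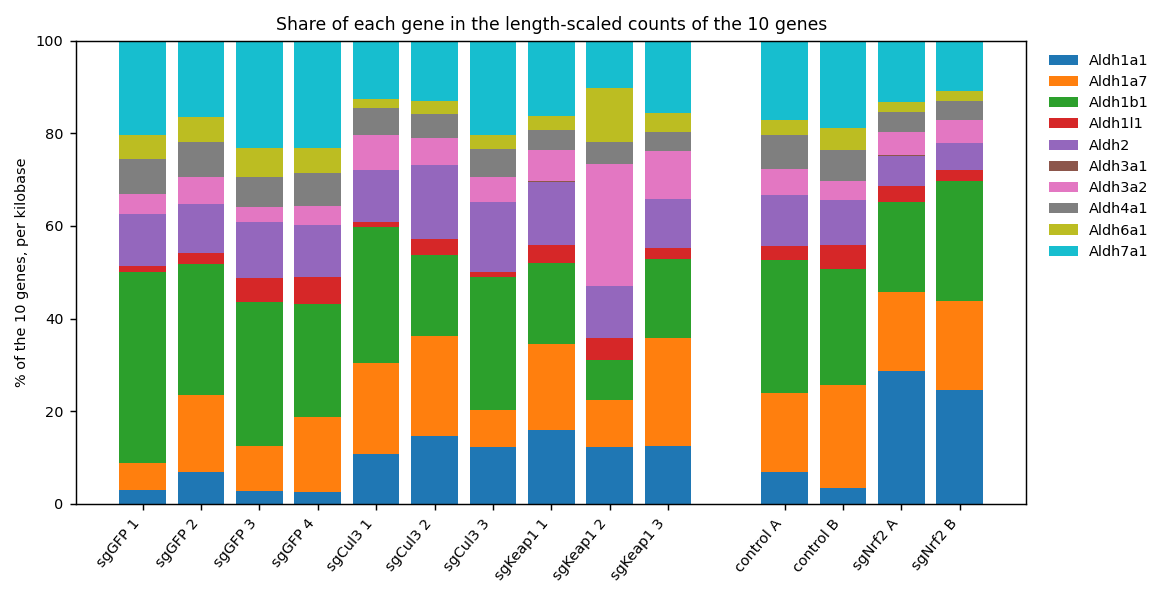
Share of each of the 10 genes in the sum of their scaled counts per kilobase of transcript, in percent, with 1 stacked bar per tumour library that starts at 0 and ends at 100. Aldh1a1, at the foot of each bar, takes 2.63% to 6.82% in sgGFP, 10.8% to 15.9% in sgCul3 and sgKeap1 and 24.6% to 28.7% in sgNrf2. The pink and olive blocks of Aldh3a2 and Aldh6a1 are tallest in sgKeap1 tumour 2.

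Libraries differed across many of the 9 well measured members (all but Aldh3a1) at once. Among the sgGFP tumours, tumour 1 was the lowest for 8 of them and tumour 3 the highest for 6. Such orders depend on how the libraries were scaled. In CPM tumour 1 was not the lowest for Aldh1a1 and Aldh3a2 (65.4 and 112.5, against 60.3 and 111.2 in tumour 4). The same held for Aldh7a1 (354, against 318 in tumour 2). Among sgCul3 tumours, tumour 2 was the highest for 7 and tumour 1 the lowest for 6, and among sgKeap1 tumours, tumour 2 was the highest for 7. The hepatocyte marker sum was lowest in sgGFP tumour 1 and sgCul3 tumour 1 and highest in sgCul3 tumour 2 and sgKeap1 tumour 2 within their groups, but in sgGFP it was highest in tumour 4 and in sgKeap1 lowest in tumour 3, whereas tumour 1 was the lowest sgKeap1 tumour for 5 members. Its part in these orders was not tested. Controls A and B allow a check of repeatability. The log2 ratio of control B to control A had the sign of that of sgGFP tumour 4 to tumour 2 in 8 of 9 genes, with a median difference of 0.23 and a largest one of 0.60, for Aldh6a1.

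Erythroid and neutrophil markers were lower in several of the tumours in which Aldh1a1 was high, but not in sgCul3 tumour 2, whose erythroid and neutrophil sums of 11320 and 2571 lay within the sgGFP ranges. Other blood cell lists did not follow them. Macrophage sums overlapped between each guide and its controls. In sgNrf2 Marco and Clec4f fell, while 3 of the 7 macrophage markers tested had log2 fold changes above 0. Lymphocyte sums were higher in sgNrf2 (216 to 279) than in control (46.8 to 138), and they overlapped with sgGFP in sgCul3 and sgKeap1. The summed level of the 9 erythroid markers in the tables (of 10 listed) was 5003 to 15080 in sgGFP, 421 to 11320 in sgCul3, 1970 to 2175 in sgKeap1, 17409 to 19338 in control and 963 to 1982 in sgNrf2. Of these 9 markers 3 fell in sgCul3, 5 in sgKeap1 and 8 in sgNrf2 by the same test. The summed level of the neutrophil markers was 664 to 4742 in sgGFP, 120 to 2571 in sgCul3, 124 to 180 in sgKeap1, 4608 to 10081 in control and 116 to 517 in sgNrf2, and 5 of 7 fell in sgKeap1, 2 of 7 in sgNrf2 and 0 of 7 in sgCul3 (5 unadjusted, 0 with edgeR and 3 with DESeq2). Cholangiocyte markers summed to 286 to 642 in sgGFP, 481 to 1506 in sgCul3, 745 to 1910 in sgKeap1, 432 to 1071 in control and 1593 to 5818 in sgNrf2. Of 7 tested, Spp1 rose in sgCul3, Spp1 and Krt19 rose in sgKeap1, and 0 passed in sgNrf2. Log2 fold changes were above 0 for 6, 5 and 7 of them in turn. Stellate and fibroblast markers summed to 1107 to 2218 in sgGFP, 1029 to 3005 in sgCul3, 2319 to 5913 in sgKeap1, 2243 to 2312 in control and 4115 to 5571 in sgNrf2. Rgs5 rose in sgCul3 and sgKeap1, and Pdgfrb and Rgs5 rose in sgNrf2. Log2 fold changes were above 0 for 4 of 8, 6 of 8 and 5 of 7 of these markers in turn. Endothelial markers summed to 712 to 1049 in sgGFP, 368 to 646 in sgCul3 and 561 to 1506 in sgKeap1. They summed to 1293 to 1326 in control and 2279 to 2571 in sgNrf2. Lyve1 fell in sgCul3, where 1 of the 8 endothelial markers had a log2 fold change above 0. Pecam1 rose in sgNrf2, where 5 of the 8 were above 0 and the rest below. Between control and sgNrf2 the hepatocyte sums were 502296 to 825383 and 376498 to 454818, and the periportal sums 34889 to 70823 and 18219 to 19419. There Ass1 and Sdsl fell, and 2 of the 9 periportal markers had log2 fold changes above 0. None of these markers was at 0 in all libraries of a group. Their part in the values of Aldh1a1 and Aldh1b1 was not tested, and in bulk samples fewer cells of a type and less RNA per cell cannot be told apart.

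Other aldehyde dehydrogenases were listed with 11 genes, of which 9 are in the first table, 8 in the second and 7 were tested in each. In sgKeap1 limma called 1 of 7, against 7.82% of all genes (2.2% in sgCul3 and 4.41% in sgNrf2). This was Aldh5a1, which oxidises succinic semialdehyde in the breakdown of GABA. Aldh5a1 had 783, 517 and 736 scaled counts in sgKeap1 against 1148, 1038, 1328 and 996 in sgGFP. All sgKeap1 tumours were lower, as for 12.6% of all genes. It fell by 0.74 ± 0.19 on the log2 scale (SE, adjusted p = 0.043), and did not pass without any 1 of the sgGFP tumours or without sgKeap1 tumours 2 or 3, with equal totals, with both groups alone or with edgeR (adjusted p of 0.051 to 0.15, in a range of 0.0082 to 0.15 over all settings). It passed in 9 of 18 settings. Limma called 0 of 7 in sgCul3, where Aldh3b1 alone had an unadjusted p under 0.05 and edgeR and DESeq2 called 0. It also called 0 of 7 in sgNrf2, where Aldh1l2, Aldh16a1 and Aldh9a1 were under 0.05 unadjusted, edgeR called 0 and DESeq2 called Aldh1l2 and Aldh16a1. Aldh3b1, which acts on lipid aldehydes, had 149, 110.5, 37.2 and 35.8 scaled counts in sgGFP, 225, 171 and 150 in sgCul3 and 264, 205 and 206 in sgKeap1. Neither guide group overlapped with sgGFP, as for 8.71% and 13.1% of all genes on the higher side in sgCul3 and sgKeap1. The log2 fold changes of Aldh3b1 were 1.36 ± 0.47 and 1.67 ± 0.47 (adjusted p = 0.17 and 0.052), and without sgGFP tumour 1 the latter passed (2.03, adjusted p = 0.021, in a range of 0.021 to 0.13). Aldh3b3, its relative, had 0 reads in all 4 sgGFP tumours and 3, 19 and 3 in sgKeap1, so that most of its 25 reads there came from tumour 2. It had 1 and 0 reads in controls and 17 and 18 in sgNrf2, a ratio of 25.3 after the same correction for scaling, with a 95% counting interval from 4.25 to 1026.

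Genes that share substrates with these enzymes were counted from lists of textbook pathways. Of all genes tested, limma called 2.2% in sgCul3, 7.82% in sgKeap1 and 4.41% in sgNrf2. Of the 9 genes of alcohol and acetaldehyde oxidation, 0 passed in sgCul3 (3 at an unadjusted p under 0.05, 0 with edgeR and 1 with DESeq2), while in sgKeap1 Cat, catalase, rose (2.53 ± 0.36, adjusted p = 0.0027) and Acss1, which makes acetyl-CoA from acetate in mitochondria, fell (-1.22 ± 0.24, adjusted p = 0.015, or 0.061 without sgKeap1 tumour 2). In sgNrf2 Cat rose as well (1.88 ± 0.26, adjusted p = 0.041), but did not pass without sgNrf2 tumour A or B. In those fits far fewer of all genes passed than with both tumours. Of the retinoid genes, 0 of 21 passed in sgCul3 (5 unadjusted, 0 with edgeR and 1 with DESeq2). In sgKeap1 1 of 21 rose, the oxidase Aox1, with 692 ± 107 scaled counts against 72.6 ± 61.7 in sgGFP (SD, n = 3 and 4), and 1 fell, the retinoid X receptor Rxra (-0.96 ± 0.25, adjusted p = 0.040), which missed the threshold when sgGFP tumour 1, 3 or 4 or any 1 sgKeap1 tumour was left out. In sgNrf2 1 of 19 fell, the retinol carrier Rbp4, with 9613 ± 867 against 43240 ± 4737 in controls, and did not pass without either sgNrf2 tumour.

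Carbonyls are also cleared by reduction and by hydrolases of their conjugates. Of 17 other carbonyl detoxifying genes, 4 rose in sgCul3 (Cbr3, Ptgr1, Cbr1 and Esd), 6 in sgKeap1 (these and the aldo-keto reductases Akr1c14 and Akr1c6) and 5 in sgNrf2 (Akr1c6, Cbr3, Ptgr1, Akr1c14 and Cbr1), and 0 fell. Ptgr1, a reductase of unsaturated aldehydes and ketones, had 10663 ± 1024 scaled counts in sgKeap1 against 177 ± 55.5 in sgGFP (SD, n = 3 and 4), so its log2 difference was 5.94 ± 0.46 (SE, limma adjusted p = 6.3e-05). Esd in sgCul3, Akr1c6 in sgKeap1 and Cbr1 and Akr1c14 in sgNrf2 each did not pass without at least 1 single tumour. The median log2 fold change of the list was 0.83, 1.05 and 0.54 in sgCul3, sgKeap1 and sgNrf2. Of 19 reference targets of NRF2, 13, 15 and 11 rose in these comparisons and 0 fell, at medians of 2.14, 2.59 and 2.84. Among them Slc7a11, at 8.34 ± 4.13 scaled counts in sgGFP (SD, n = 4), reached the test of the first table only through the sgCul3 and sgKeap1 tumours. Its calls there are no support. The reference targets were listed with earlier results of these libraries known.

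In the AhR response, whose receptor is known to induce Aldh3a1, 1 of 9 genes rose in sgCul3, the quinone reductase Nqo1, which NRF2 also induces. In sgKeap1 3 of 9 rose, Nqo1, Cyp1a1 and Cyp1a2. Cyp1a1 stood at 45.5 ± 30.0 scaled counts against 0.221 ± 0.443 in sgGFP and reached the test only through the sgKeap1 tumours, so its call is no support, and Cyp1a2 did not pass without any 1 sgGFP tumour or without sgKeap1 tumours 2 or 3. In sgNrf2 Ugt1a6b and Nqo1 rose, with log2 fold changes of 2.95 to 3.37 and 4.34 to 6.60 over all settings. Neither passed without sgNrf2 tumour A or B, where far fewer of all genes passed. Of the 20 folate enzymes, Ftcd, which works in histidine breakdown beside folate, fell in sgCul3 (-1.66 ± 0.27, adjusted p = 0.013, or 0.077 without sgCul3 tumour 1). In sgKeap1 Mthfd2l rose and Gnmt and Ftcd fell, none of which passed without sgGFP tumour 3. In sgNrf2 limma called 0 of the 20 (6 unadjusted, 0 with edgeR and 6 with DESeq2).

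The lists around the amino acid enzymes gave few calls. Of 7 genes of proline turnover limma called 0 in sgCul3, sgKeap1 and sgNrf2 (3, 1 and 2 unadjusted, 0 with edgeR, and 1, 0 and 2 with DESeq2). Of 19 genes of valine and branched-chain breakdown 0 passed in sgCul3 and sgNrf2 (8 and 6 unadjusted, 0 with edgeR, and 3 and 4 with DESeq2), and Abat and Ivd fell in sgKeap1 (-0.93 ± 0.23 and -0.83 ± 0.22, adjusted p = 0.037 and 0.046), neither of which passed without any 1 sgKeap1 tumour. Of 7 lysine breakdown genes Dhtkd1 fell in sgCul3 and did not pass without any 1 sgCul3 tumour, 0 passed in sgKeap1 (2 unadjusted, 0 with edgeR and 2 with DESeq2), and Aass, which starts lysine breakdown, fell in sgNrf2 (-5.22 ± 0.79, adjusted p = 0.044) but did not pass without either sgNrf2 tumour. Of 16 genes of fatty aldehyde and sphingolipid breakdown 0 passed in sgCul3 and sgKeap1 (2 and 5 unadjusted, 0 with edgeR, and 1 and 2 with DESeq2). In sgNrf2 Sgpl1, whose product makes a fatty aldehyde from sphingosine phosphate, rose and Cyp4a14 fell, and neither passed without sgNrf2 tumour A or B. With edgeR, Ftcd and Ivd in sgKeap1 and Aass, Cyp4a14 and Cbr1 in sgNrf2 missed the threshold as well (adjusted p of 0.0505 to 0.0563). Between sgKeap1 and sgCul3 limma and edgeR called 0 genes of any of these lists and DESeq2 1, among the alcohol genes, with 0 to 7 per list at an unadjusted p under 0.05.

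The genes whose levels followed each enzyme most closely were sought over the 10 libraries of the first table among 8778 genes, as a description. These libraries share the guide groups, so genes that differ between groups correlate for that alone. Aldh1a1 was most like Vta1, Nmi and Prdx1 (Pearson r of 0.952, 0.942 and 0.940), and Prdx1 encodes a peroxiredoxin. Among the genes most like Aldh1b1 were Bace1 and Acss1 (0.962 and 0.959). Aldh2 was most like Pzp, C3 and Plg (0.964, 0.957 and 0.943), which encode secreted plasma proteins of the liver. Aldh6a1 was most like Hadha, Crebl2 and Retsat (0.979, 0.979 and 0.958), and Aldh3a2 like Rap2c, Mospd2 and Slc25a16 (0.983, 0.980 and 0.977). For both of these sgKeap1 tumour 2 is the highest library by far. Aldh1a7 was most like Ndufa8, Cox4i1 and Glo1 (0.941, 0.940 and 0.937), the first pair of which encode subunits of the respiratory chain. Aldh1l1 was most like Sult1a1, Iah1 and Aass (0.946, 0.939 and 0.936), Aldh4a1 like Edem1, Acsl1 and Serpina1d (0.962, 0.947 and 0.945), and Aldh7a1 like Tmem135, Galnt11 and Stard5 (0.965, 0.957 and 0.952). No other aldehyde dehydrogenase was among the 3 nearest genes of any member.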

How the data were processed

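Total RNA of 14 tumour libraries was sequenced, per the labels, after a Qiagen extraction and with a TruSeq RNA kit V2. Each deposited value is a signal: HTSeq gene counts that the authors scaled by DESeq. Picard and mm10 are also named in the submitters' processing notes, and the aligner is not given in the sources used here. Every entry of the first table carries an extra 1 from the authors, which the levels in the text leave out. Values came out as whole reads (100% to within 0.1 reads), so reads were recovered. For the sgNrf2 libraries and their controls, 52.4% to 66.8% of all reads lie in 4 entries that name no gene, which were left out. The largest entry, reads without a unique alignment, held 56.8% and 58.0% of control reads. It held only 45.0% and 46.4% of the sgNrf2 reads, so its size differed by group. Whether this affects the fold changes was not tested.

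The test was limma 3.58.1 in R 4.3.3 (mean-variance trend, two-sided, no block) on log2 of the deposited value plus 1, applied where a gene's mean reached 10. A gene was called when its p, adjusted by Benjamini-Hochberg over all genes tested, was under 0.05. Adjusted p-values in the text are limma's unless another tool is named. Fold changes are on that scale, which understates low genes. The spread was estimated jointly for sgGFP, sgCul3 and sgKeap1. The test was checked on simulated data, in which the spread was the same for all genes. Of log2 changes of 1 it recovered 25.4% in sgCul3, 17.9% in sgKeap1, 16.4% between sgKeap1 and sgCul3 and 8.96% in sgNrf2. Of log2 changes of 2 it recovered 67.2% in sgNrf2 and at least 95.5% in the other comparisons. These shares need not hold for genes with a wider spread. In sgCul3, Akr1c6 (4.17 ± 1.29) and Aass (-2.67 ± 1.33) did not pass (SE, limma adjusted p = 0.13 and 0.34). A gene that did not pass can therefore still differ.

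What tumour numbers stand for is not in the labels. Across genes, same-numbered tumours of sgGFP and sgCul3 deviated together from their group means (r = 0.164, 0.175 and 0.314), so the data, not the labels, were the ground for pairing them. For the other groups not every pair was over 0.1, which was not taken as such a ground (0.199, 0.043 and -0.094 for sgGFP and sgKeap1, and 0.239, 0.518 and 0.098 for sgCul3 and sgKeap1). The block was nevertheless fitted over all libraries of a table. The sgKeap1 tumours therefore entered it by their number as well, also for the p-values of sgCul3. With the block, sgGFP tumour 4 drops out.

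Members and gene lists were chosen with earlier results of these data known. The text names all members and other aldehyde dehydrogenases, up to 4 called genes per list by adjusted p, and the 3 genes most correlated with each member among those with a mean of at least 100, without predicted genes. For Aldh1b1, 1 of these genes is not reported here. Of the genes this rule allows, those given with values were chosen after seeing them, and Esd, Akr1c6 and others beyond 4 are named to complete a count. Altered symbols were restored by gene ID (23 and 24 rows). Coordinates come from GENCODE M21 (GRCm38), in which 16769 and 16048 of the IDs were found, and upstream sequences from RefSeq. Intervals and floors cover counting error only. Alternatives were other filters (no filter, or a mean of at least 50), a pseudocount of 5, other scalings (quantile, equal totals), edgeR 4.0.16 and DESeq2 1.42.0 on the recovered reads, blocking by tumour number, both groups alone, each library left out and, chosen after seeing the data, the added 1 removed.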

Additional observations from a re-analysis of the deposited data

Results flagged for a closer look

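Aldh5a1, the succinic semialdehyde dehydrogenase, had log2 fold changes of opposite sign under different guides. The values were -0.24 in sgCul3 (limma adjusted p = 0.57) and -0.74 in sgKeap1 (adjusted p = 0.043), where every tumour was below the sgGFP mean, and 0.33 in sgNrf2 (adjusted p = 0.38), where both tumours were above the control mean. Those in sgCul3 and sgNrf2 did not pass. The difference between the guides was not tested, since the tables were scaled separately, and 54 pairs of a gene and guides were compared for such opposite movement. No tumour of the sgGFP group stood apart from the other 3 for any of 18 aldehyde dehydrogenases by the 95% limit of Dixon's test, which chance alone passes in about 1 in 20 groups.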

How the results depend on the processing

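The count of members called in sgCul3 against sgGFP was 0 and became 1, Aldh1a1, with quantile normalization, equal totals, DESeq2, the tumour number as a block and without sgGFP tumour 2, and ranged from 0 to 1 over the left-out libraries. In sgKeap1 the count was 2 and ranged from 1, without sgKeap1 tumour 3, to 3, without sgKeap1 tumour 1. Of all genes, 201 were called higher and 113 lower of 13071 without sgKeap1 tumour 3. Without sgKeap1 tumour 1 they were 814 and 688 of 13040. In sgNrf2 the count of members was 1, and it changed without sgNrf2 tumour A, sgNrf2 tumour B or control A. Each of these fits leaves 1 tumour in a group, so their counts are not given. In sgKeap1 the same block changed the calls of Aldh3a2 and Aldh3b1, which passed with it (adjusted p = 0.044 and 0.038), although those tumours share only a number. Aldh1a1 in sgKeap1 passed in 18 of 18 settings, with adjusted p of 5.1e-05 to 0.047. With equal totals the median log2 fold change of all genes was -0.20 in sgKeap1, -0.23 between sgKeap1 and sgCul3 and 0.34 in sgNrf2, beside -0.0069, -0.0015 and 0.040 as reported. Beside the 9 changed counts, 54 of the single-gene values reversed, all of genes that had not passed, 21 newly passed and 111 no longer passed, and 1533 kept direction and side.

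Values that crossed 0 are log2 fold changes, and ranges are over the left-out libraries. In sgCul3 they were -0.26 to 0.70 for Aldh1a7, -0.20 to 0.37 for Aldh2, -0.20 to 0.24 for Aldh16a1 (edgeR -0.081, DESeq2 -0.084) and -0.10 to 0.10 for Aldh18a1. In sgKeap1 they were -0.31 to 0.65 for Aldh1l1, -0.11 to 0.38 for Aldh2, -0.82 to 0.60 for Aldh6a1, -0.19 to 0.94 for Aldh1l2, -0.13 to 0.14 for Aldh9a1 and -0.28 to 0.15 for Aldh16a1 (0.15 with the replicate block). With quantile normalization and equal totals, Aldh2 was at -0.058 and -0.038, Aldh6a1 at -0.12 and -0.15 and Aldh9a1 at -0.12 and -0.18. Between sgKeap1 and sgCul3 the ranges were -0.032 to 0.91 for Aldh1a7, -0.21 to 0.37 for Aldh2 (quantile -0.11, equal totals -0.15), -0.38 to 0.16 for Aldh4a1 (edgeR 0.057, DESeq2 0.064), -0.041 to 0.41 for Aldh7a1 (equal totals -0.015), -0.34 to 0.59 for Aldh8a1 (equal totals -0.020) and -0.18 to 0.024 for Aldh16a1. In sgNrf2 they were -0.0010 to 0.63 for Aldh1a7, -0.11 to 0.47 for Aldh1b1, -0.58 to 0.51 for Aldh1l1 (quantile 0.14, equal totals 0.28), -0.35 to 0.041 for Aldh7a1 (quantile 0.086, equal totals 0.15) and -0.12 to 0.72 for Aldh18a1, and Aldh4a1 was at 0.017 with equal totals. The cause was not tested. Where 1 library of a pair is left out, the other is assumed to vary like the other groups. Without sgNrf2 tumour A or B far fewer of all genes passed than with both. Depth limits Aldh3a1, Aldh3b3 and Aldh1a2 to counts of reads.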
